A study of Ctenopharyngodon idella and Danio rerio with 13 samples.

Results

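Creatine kinases and a glyceraldehyde-3-phosphate dehydrogenase named for sperm were followed through RNA libraries of fish sperm. The genes were taken by symbol: ckba, ckbb, ckma, ckmb and gapdhs. All 5 are present among the 31314 named entries of the count tables. The libraries came from 3 zebrafish labelled GSCT, for germline stem cell transplantation, which served as surrogates for grass carp, from 5 wild-type grass carp and from 5 wild-type zebrafish, with 1 library per fish. According to the study's title, the transplanted stem cells were female and the aim was grass carp sperm that all carry an X. The labels give the GSCT genotype as surrogate reproduction and state no age, and they do not describe the germ cells that the host fish still had. RNA was extracted and copied to cDNA in a single reaction from diluted sperm, with an mRNA amplification kit meant for single cells.

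Creatine kinase moves phosphate between ATP and creatine, so that energy made at one place in a cell can be spent at another. In sea urchin sperm, creatine phosphate carries energy from the mitochondrion along the tail to the dynein motors. The vertebrate cytosolic enzymes are known as brain type (ckb) and muscle type (ckm), and teleost fish hold each as an a and a b copy. In mouse, the sperm-specific glyceraldehyde-3-phosphate dehydrogenase Gapdhs carries out a step of glycolysis in the tail and is needed for motility.

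The 3 GSCT libraries held 376926 to 2602370 counts on named genes. Those of grass carp held 1335167 to 5471312, and those of zebrafish held 487 to 248321. All libraries were counted on grass carp genes, so zebrafish values also depend on which zebrafish reads align there. Zebrafish replicate 3 held only 487 counts and stands apart, and values without it are given beside most of those that rest on it. In GSCT and grass carp libraries counts followed the length of the gene, with a Spearman rho between count and gene span of 0.604 to 0.6795 across 25117 nuclear protein-coding genes, which are not independent replicates. In zebrafish libraries rho was 0.0172 to 0.291 (0.210 to 0.291 without replicate 3). The part played in these counts by nucleic acid other than mRNA was not tested.

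The labelled cell type was checked against marker lists. Of 21 sperm axoneme and head genes, 21 had counts in every GSCT and grass carp library, and their counts summed to 1439 to 1536 CPM for GSCT against 1461 to 1600.0 CPM for grass carp, where CPM is the usual count scaled to the library's total on named genes. The same libraries held counts on all 20 muscle genes (GSCT 1656 to 1825 CPM, grass carp 1608 to 2010.0 CPM) and on 15 or 16 of 16 nervous tissue genes (GSCT 531 to 576 CPM, grass carp 504 to 573 CPM). Blood genes were covered as well, 10 or 11 of 11, and summed to 238 to 284 CPM for GSCT against 261 to 299 CPM for grass carp. Per kb of gene span, the median sperm gene was at 2.56 to 2.88 CPM in GSCT and 2.55 to 3.085 in grass carp libraries. Muscle gave 2.24 to 2.71 and 2.85 to 3.65, and blood 2.19 to 3.235 and 3.04 to 3.64. Nervous tissue gave 1.705 to 1.91 and 1.63 to 2.25. The median over all nuclear protein-coding genes was 2.19 to 2.38 and 2.41 to 2.68. The lists thus did not set sperm genes above those of muscle and blood, and do not bear out the label. In zebrafish libraries between 0 and 10 sperm genes were detected (7 to 10 without replicate 3). The muscle sum there, 532 to 41070 CPM (532 to 32090 without replicate 3), lay mostly on mybpc2a, a myosin-binding protein (mean 19780 of 20410 CPM). That gene had 7951 counts in all, and the mean of the muscle sum was 15250 CPM without replicate 3. The giant muscle proteins ttn.2, ttn.1 and neb followed, with 197, 98 and 96 counts, and 9 of the 20 muscle genes were at 0 in all zebrafish libraries, among them mylpfa, mylz3 and tnnt3a of fast muscle. Blood genes in zebrafish libraries summed to 0 to 405 CPM (10.9 to 405 without replicate 3). Fewer cells of a type and less RNA per cell cannot be told apart in these bulk samples.

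The main comparison set sperm made in a surrogate beside sperm of the donor species. The brain-type creatine kinase ckba was lower in GSCT sperm, and no difference passed the test for its copy ckbb, for the muscle-type ckma and ckmb, or for gapdhs. Counts of ckba in GSCT replicates 1, 2 and 3 were 42, 27 and 9, or 16.1, 12.6 and 23.9 CPM. In grass carp replicates 1 to 5 they were 296, 566, 208, 55 and 396, or 57.85, 147.9, 39.3, 41.2 and 72.4 CPM. Every grass carp library was above every GSCT library, and grass carp replicate 2 was the highest of all. Of the 28165 genes tested, 9.67% were likewise lower in every GSCT library.

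ckba averaged 17.55 ± 5.76 CPM over the GSCT fish (SD, n = 3). Over the grass carp it averaged 71.7 ± 44.7 CPM (SD, n = 5), or 52.7 CPM with replicate 2 left out. In the quasi-likelihood test of edgeR, Benjamini-Hochberg adjusted over all genes tested, ckba fell by 2.16 ± 0.41 (log2, SE; adjusted p = 0.00379), a 4.48-fold difference. Among the 5 genes 1 passed, against 4.34% of all genes tested (0.849% lower and 3.49% higher in GSCT). In the order of log2 changes, 0.0568% of genes had a lower value. The call ended without GSCT replicate 2 (-1.998, edgeR adjusted p = 0.0939) and when the spread was moderated robustly (-2.16 ± 0.69, edgeR adjusted p = 0.156). How reads shared by ckba and its copy ckbb were counted is not given, so the split between them is uncertain. The call held without grass carp replicate 2, the highest library (-1.73, edgeR adjusted p = 1.95e-04).

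Depth differed between the groups as well. Grass carp replicate 4, at 1335167 counts, lay within the range of GSCT totals and had ckba at 41.2 CPM, with an exact Poisson interval of 31.0 to 53.6 CPM at the 95% level. The shallowest GSCT library, replicate 3, had 23.9 CPM on 9 counts, with an interval of 10.9 to 45.3 CPM that reaches the lowest grass carp values. The intervals of GSCT replicates 1 and 2, 11.6 to 21.8 and 8.32 to 18.4 CPM, lay below those of all 5 grass carp libraries. Such intervals cover counting error only: the cDNA was amplified with no molecular identifiers named, and reads may be copies of one molecule. With mitochondrial and rRNA genes left out the change was -2.16 (edgeR adjusted p = 0.00370).

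**Figure D1:**
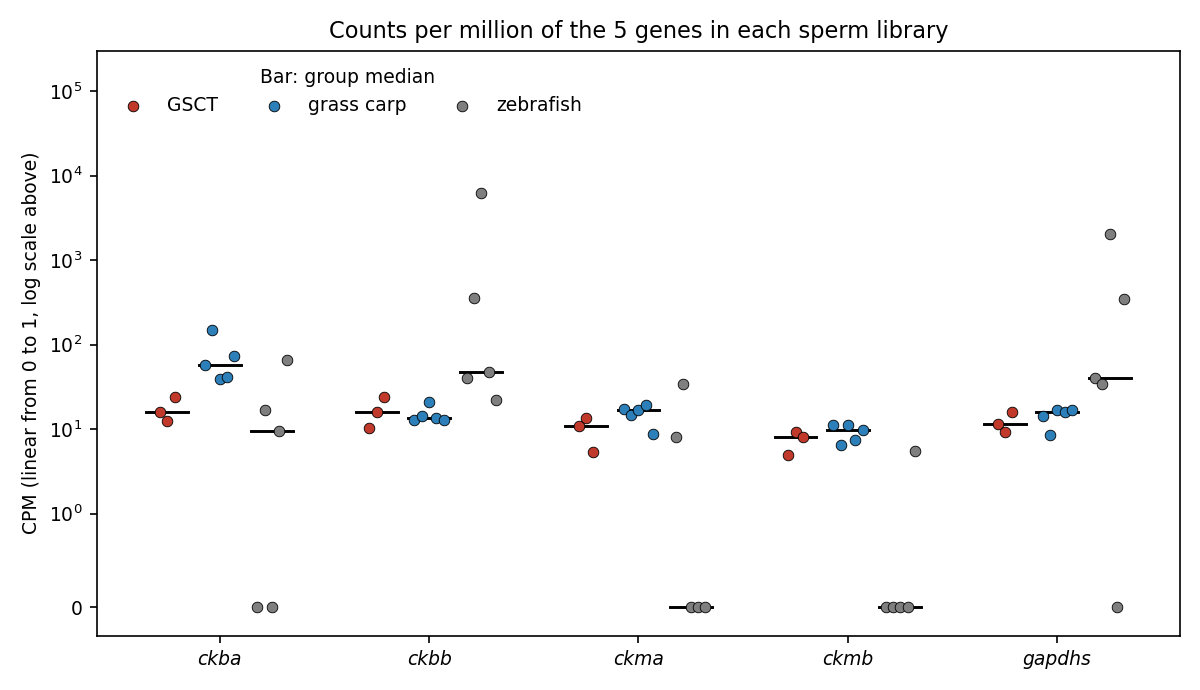
CPM (vertical axis, linear from 0 to 1 and logarithmic above) of the 5 genes in each library of the 3 groups; each point is 1 library and each bar a group median. For ckba all grass carp points, 39.3 to 147.9 CPM, lie above all GSCT points, 12.6 to 23.9 CPM. The other 4 genes overlap between these groups. Zebrafish points scatter from 0 to 6160 CPM, or to 354.5 CPM without replicate 3.

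The other brain-type copy, ckbb, was at 10.4, 15.9 and 23.9 CPM in GSCT replicates 1 to 3 (27, 34 and 9 counts). In grass carp replicates 1 to 5 it was at 12.7, 14.1, 20.8, 13.5 and 12.98 CPM. The groups overlapped, with the lowest and the highest of the 8 libraries both in GSCT. Its log2 change was 0.01 ± 0.28 (edgeR adjusted p = 0.997).

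The muscle-type copy ckma was at 10.8, 13.6 and 5.31 CPM in GSCT and at 17.2, 14.6, 16.6, 19.5 and 8.77 CPM in grass carp. Its GSCT libraries lay at or below the middle of the grass carp range but overlapped with it through grass carp replicate 5. The log2 change was -0.32 ± 0.30 (edgeR adjusted p = 0.598). The second muscle-type copy, ckmb, had the lowest mean CPM of the 5 genes in both groups, with GSCT libraries at 4.995 to 9.35 CPM and those of grass carp at 6.54 to 11.3 CPM. Its log2 change was -0.35 ± 0.33 (edgeR adjusted p = 0.614).

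For gapdhs, GSCT replicates 1 to 3 gave 11.5, 9.35 and 15.9 CPM and grass carp replicates 1 to 5 gave 14.3, 8.63, 16.6, 15.7 and 16.6 CPM. The lowest library was grass carp replicate 2, the one with the highest ckba. The log2 change was -0.30 ± 0.28 (edgeR adjusted p = 0.606). A p that misses the threshold does not show that these 4 genes are alike in the groups. With SEs of 0.28 to 0.33 even changes near 1 log2 unit could be missed.

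Levels of different genes were compared per kb of gene span. In grass carp sperm ckba stood at 10.4 ± 6.495 CPM per kb (SD, n = 5). That was the highest mean of all 76 genes of creatine, phosphate transfer, glycolysis and sugar transport that were examined. The next were bpgm (7.12), of red cell glycolysis, and eno2 (6.58), an enolase. The mean of ckba leaned on replicate 2, at 21.5 CPM per kb. In replicates 3 and 4 ckba was at 5.70 and 5.99, below the means of bpgm and eno2. Ranks without replicate 2 were not computed. In GSCT sperm ckba was at 2.55 ± 0.837 CPM per kb (SD, n = 3), number 36 of the 76. The other cytosolic creatine kinases were at 2.87 to 3.79 CPM per kb in grass carp and 2.30 to 3.28 in GSCT. gapdhs was near the bottom in both, at 1.15 ± 0.268 CPM per kb in grass carp (number 71) and 0.983 ± 0.268 in GSCT (number 70).

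Set against all nuclear protein-coding genes of the same library, ckba had percentiles of 96.6, 99.8, 87.9, 89.3 and 98.25 per kb in grass carp replicates 1 to 5. In GSCT replicates 1 to 3 its percentiles were 49.4, 40.5 and 70.1. The grass carp libraries thus placed ckba in the upper end of the distribution, and the GSCT libraries near its middle. In grass carp the percentiles of ckbb were 48.9 to 72.6, those of ckmb 41.7 to 66.96, those of ckma 43.9 to 81.7 and those of gapdhs 13.1 to 25.9. In GSCT they were 42.9 to 81.6, 31.4 to 61.9, 31.2 to 69.3 and 15.03 to 30.4.

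**Figure D2:**
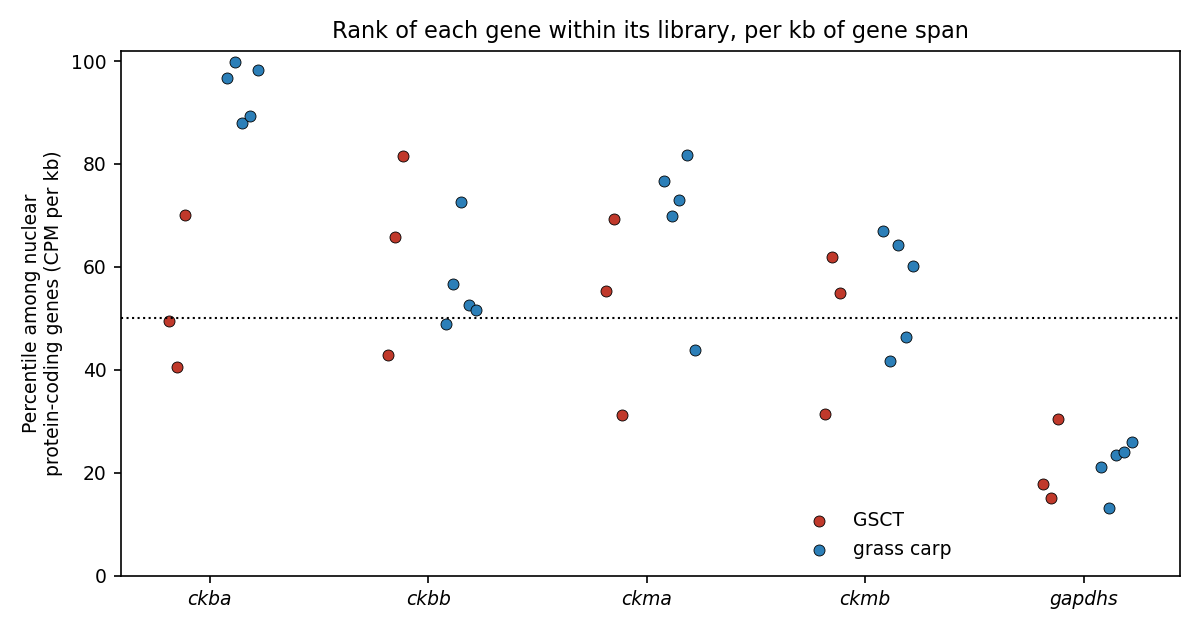
Percentile of each gene (vertical axis) among 25117 nuclear protein-coding genes of its own library, by CPM per kb of gene span; each point is 1 GSCT or grass carp library and the dotted line marks the middle. Only ckba shows a gap between groups, with grass carp libraries from 87.9 to 99.8 and GSCT libraries from 40.5 to 70.1.

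The spread of ckba among grass carp was wide. Its coefficient of variation over the 5 fish was 62.3%, above that of 98.95% of the 28165 genes tested, whose median was 16.45%. The highest fish, replicate 2, exceeded the lowest 3.77-fold. Much of the spread came from that fish: the mean and SD were 71.7 and 44.7 CPM with it and 52.7 and 15.6 CPM without it. The other 4 genes had coefficients of 22.8% to 26.4%.

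ckba has trmt61a, a tRNA methyltransferase subunit, and mark3a, a kinase of microtubule-associated proteins, on its 2 sides in the grass carp RefSeq annotation. No difference between the groups passed for either of them. In GSCT replicates 1 to 3 trmt61a was at 1.09, 1.44 and 2.196 CPM per kb, and in grass carp it ran from 1.24 to 1.72. mark3a was at 1.57, 1.397 and 0.905 CPM per kb in GSCT and at 1.27 to 1.595 in grass carp. The log2 changes were 0.05 ± 0.22 for trmt61a and 0.02 ± 0.15 for mark3a (edgeR adjusted p = 0.932 and 0.97). ckba stood at 7.39 times the mean of its neighbours per kb in grass carp and at 1.78 times in GSCT. For ckbb, ckma, ckmb and gapdhs the same ratio was 0.589, 0.969, 0.977 and 0.185 in grass carp and 0.524, 0.679, 0.978 and 0.140 in GSCT.

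Kinases of the same MARK family also adjoin the muscle-type copies, mark4a beside ckma and mark4b beside ckmb. GSCT sperm had mark4a at 21.5 ± 2.875 CPM (SD, n = 3) and grass carp sperm at 37.4 ± 10.2 CPM (SD, n = 5), a log2 change of -0.63 ± 0.22 that did not pass (edgeR adjusted p = 0.111). On the other side of ckma lay nccrp1, and of ckmb klc3, a kinesin light chain (log2 changes -0.18 and -0.34, edgeR adjusted p = 0.751 and 0.218). ckbb lay between ppp1r13bb and xrcc3, a DNA repair gene (-0.11 and 0.35, edgeR adjusted p = 0.867 and 0.237). gapdhs lay between tmem147 and the noncoding LOC127497022 (0.30 and 0.04, edgeR adjusted p = 0.570 and 0.951).

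**Figure D3:**
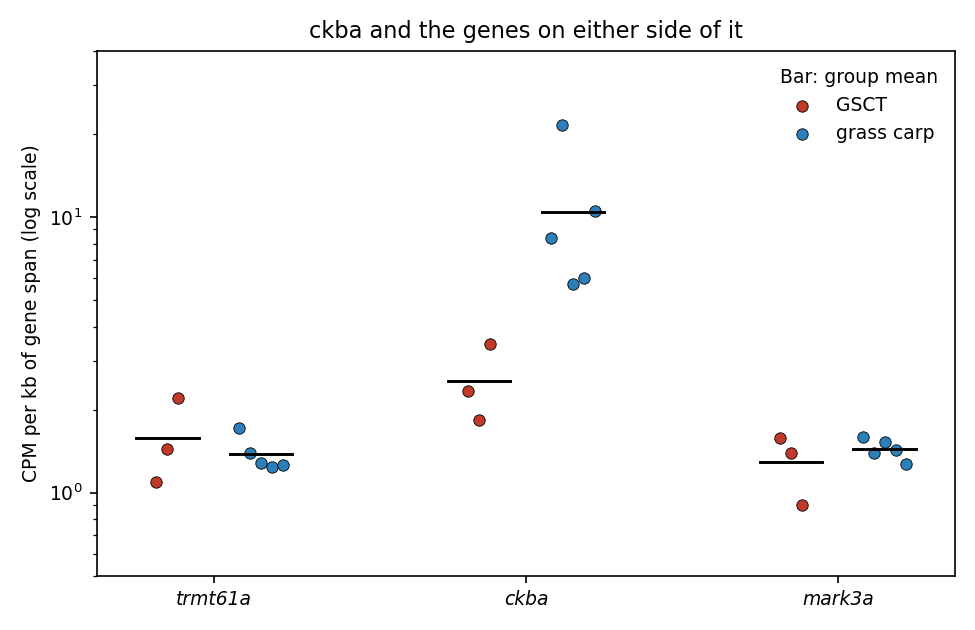
CPM per kb of gene span (vertical axis, log scale) of ckba and of the gene on each side of it; points are single GSCT or grass carp libraries and bars are group means. The groups overlap for trmt61a and mark3a, all points between 0.905 and 2.196, and part for ckba, with means of 2.55 in GSCT and 10.4 in grass carp.

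The make-up of the creatine kinase counts differed in step with ckba. Of all counts on the 4 cytosolic genes, ckba took 38.2%, 24.55% and 39.1% in GSCT replicates 1 to 3, with Wilson intervals at the 95% level of 29.65% to 47.5%, 17.45% to 33.4% and 22.2% to 59.2%. In grass carp replicates 1 to 5 it took 58.4%, 80.7%, 44.6%, 50.5% and 69.7%. All grass carp shares were above all GSCT shares. The intervals of grass carp replicates 3 (40.2% to 49.2%) and 4 (41.2% to 59.7%) overlapped with those of GSCT replicates 1 and 3, and that of grass carp replicate 1 (54.0% to 62.6%) with that of GSCT replicate 3. ckbb made up 31.5% ± 7.31 of these counts in GSCT (SD, n = 3). Its share in grass carp was 14.6% ± 5.92 (SD, n = 5), and there the higher ckba by itself lowers the shares of the others. Together the 4 genes came to 51.6 ± 9.38 CPM per GSCT library and 111 ± 41.2 CPM per grass carp library.

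**Figure D4:**
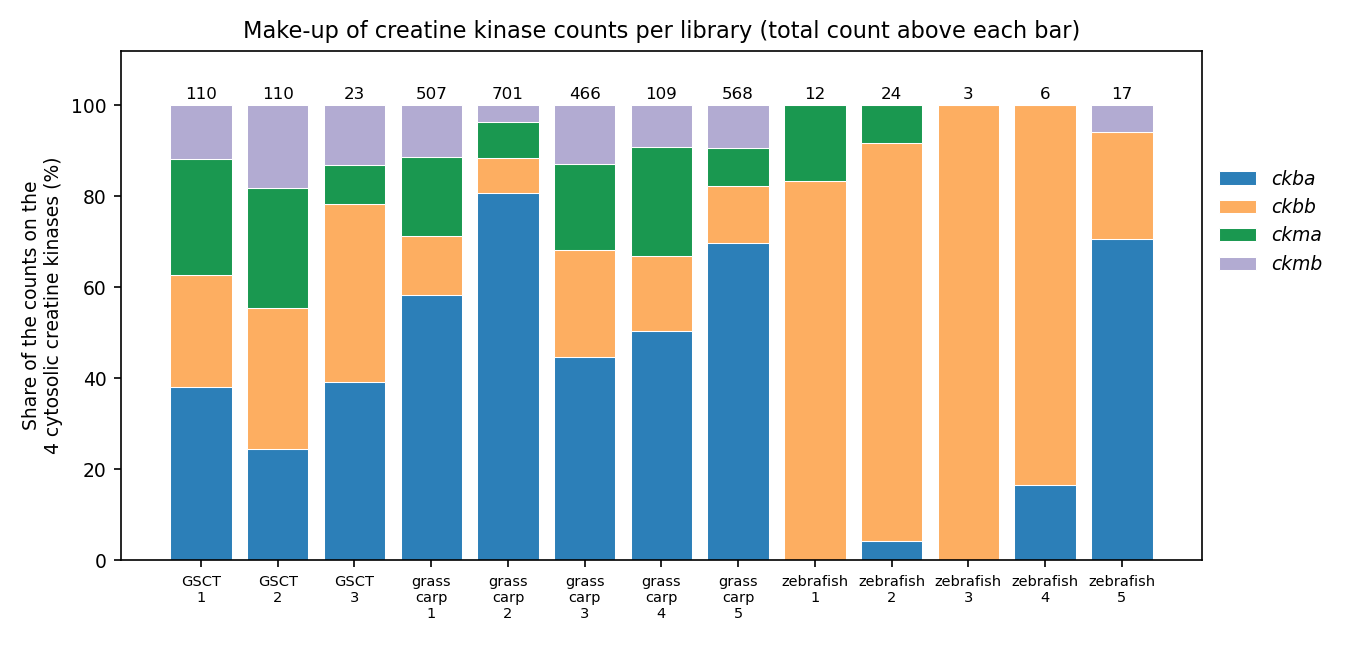
Share in percent (vertical axis) of ckba, ckbb, ckma and ckmb in the counts on these 4 genes, 1 bar per library, with the number of counts above each bar. ckba takes 24.55% to 39.1% in GSCT and 44.6% to 80.7% in grass carp libraries; most zebrafish bars, which rest on 3 to 24 counts, are mainly ckbb.

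Few other genes of energy supply passed in this comparison, and the lists were not tested as sets. Of 22 genes for creatine handling and phosphate transfer (mitochondrial creatine kinases, creatine synthesis and uptake, adenylate and nucleoside diphosphate kinases), 0 passed by edgeR's quasi-likelihood test and 5 had an unadjusted p under 0.05, where 19.99% of all genes tested did. By DESeq2 0 passed. Their median log2 change was -0.05, against -0.01 over all genes tested. The 4 with the lowest p were ak9, nme2a, the creatine transporter slc6a8 and ak7a, none past the threshold. Of these ak9, an adenylate kinase, was at 44.8 ± 8.07 CPM in GSCT and 61.7 ± 4.55 in grass carp (log2 -0.44 ± 0.15, edgeR adjusted p = 0.0927). ak7a, another, was at 55.1 ± 9.71 and 41.3 ± 5.91 CPM (0.40 ± 0.16, edgeR adjusted p = 0.1555). The nucleoside diphosphate kinase nme2a was at 6.45 ± 2.97 CPM in GSCT and 13.3 ± 2.297 in grass carp (log2 -0.87 ± 0.32, edgeR adjusted p = 0.130). slc6a8 was at 60.1 ± 11.2 CPM in GSCT and 86.0 ± 11.6 in grass carp (-0.40 ± 0.15, edgeR adjusted p = 0.1496).

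Of 37 genes of glycolysis 1 rose and 0 fell, where 3.49% of all genes tested were higher and 0.849% lower in GSCT. The number is thus not read as a result about the list. Its median log2 change was -0.12, and 6 genes had an unadjusted p under 0.05 by edgeR, beside the 19.99% of all genes. The gene that rose was pklr, the pyruvate kinase of liver and red blood cells, with 42.45 to 50.5 CPM over the GSCT libraries against 17.0 to 32.8 CPM over those of grass carp. Its log2 change was 0.98 ± 0.19 (edgeR adjusted p = 0.00518), and leaving out GSCT replicate 2 ended the call (0.86, edgeR adjusted p = 0.116). Next by p were hk2, which starts glycolysis (-0.47 ± 0.15, edgeR adjusted p = 0.0816), pgk1, which makes ATP (0.43 ± 0.15, adjusted p = 0.119), and eno4, an enolase needed for mouse sperm motility (-0.45 ± 0.16, adjusted p = 0.1285). With scaling by library size alone 2 of the 37 passed, 1 higher and 1 lower, and 2 passed, both higher, without grass carp replicate 2.

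Of 12 glucose and lactate transport genes 0 passed by edgeR and 0 by DESeq2, and 2 had an unadjusted p under 0.05, beside the 19.99% of all genes. Those were slc2a2, a glucose transporter (-0.82 ± 0.28, edgeR adjusted p = 0.109), and bsg, a partner of lactate transporters (-0.63 ± 0.23, adjusted p = 0.136). The next by p were slc16a1b, a lactate transporter (-0.18 ± 0.15), and slc2a1b, a glucose transporter (-0.10 ± 0.20; edgeR adjusted p = 0.566 and 0.8385). The list had a median of -0.05. Without grass carp replicate 2, 1 of the 12 passed as lower in GSCT.

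**Figure D5:**
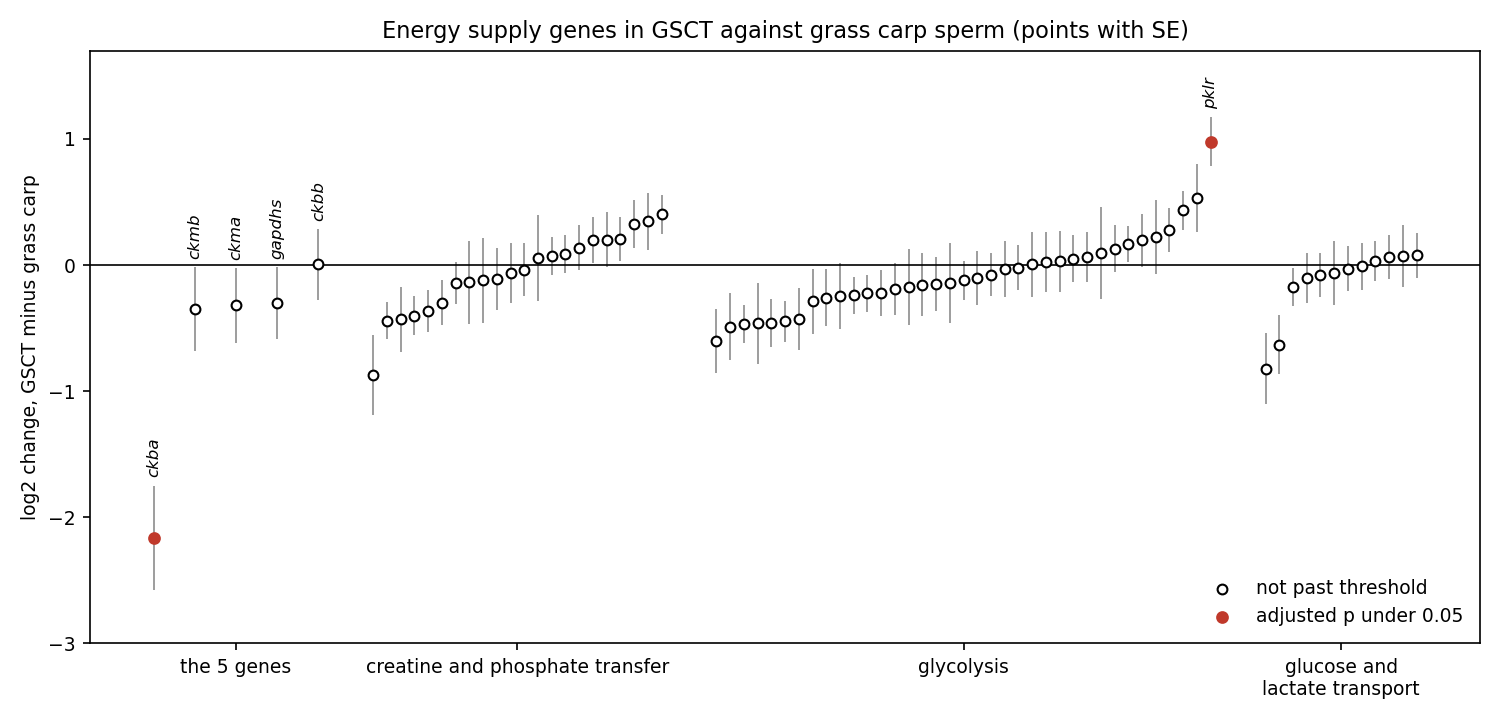
Log2 change, GSCT minus grass carp (vertical axis, with SE from edgeR), of the 5 genes and of 71 other energy supply genes sorted within each list; filled points passed an adjusted p of 0.05. ckba, at -2.16, and pklr, at 0.98, are the filled points.

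Genes whose levels ran most like those of ckba over the 8 GSCT and grass carp libraries were nmu, gria2b and stat4, with a Pearson r of log2(CPM + 1) of 0.983, 0.979 and 0.979. They are a neuropeptide, a glutamate receptor subunit and a transcription factor gene, and their own log2 changes were smaller, at -0.58, -0.38 and -0.43 (edgeR adjusted p = 0.101, 0.214 and 0.111). For ckbb the nearest were map1sb, camk2g1 and arrdc1a (0.979, 0.972 and 0.963), and for ckma itgb1bp1, grin2cb and calm1a (0.983, 0.982 and 0.979). For ckmb they were cd79a, ltbp3 and xylt1 (0.980, 0.931 and 0.925) and for gapdhs gtpbp6, ppardb and gps1 (0.9695, 0.962 and 0.956). These r are descriptions: the points share the same 8 libraries and their depths, and the genes were picked as the highest of 28165.

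Zebrafish sperm gave another picture of the same genes, at far lower depth. There ckbb and gapdhs carried most of the counts, with 43 and 76 over the 5 libraries, against 14 on ckba, 4 on ckma and 1 on ckmb. ckbb had 10, 21, 3, 5 and 4 counts in zebrafish replicates 1 to 5, or 40.3, 354.5, 6160, 47.4 and 21.8 CPM. It was 1 of 116 entries (0.370% of all named entries) with a count in each of the 5 libraries. Replicate 3, with counts on only 237 entries, limits that number, and the share over the other libraries was not computed. The value of replicate 3 rests on 3 counts, and the mean was 1325 CPM with it and 116 CPM without it. Nervous tissue markers summed to 197, 5925, 0, 843 and 655 CPM in the same libraries, with 5 of 16 at 0 in all of them and most counts on elavl3 and snap25b (353 and 95). Their sum was highest in replicate 2, which also held 21 of the 43 ckbb counts, and the part of nervous tissue in the ckbb value was not tested.

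gapdhs had 10, 2, 1, 0 and 63 counts in zebrafish replicates 1 to 5, or 40.3, 33.8, 2053, 0 and 344 CPM. Replicate 5 held 63 of the 76 counts, and the mean was 494 CPM, or 104 CPM without replicate 3. In replicate 4 the exact Poisson interval of its 0 counts reaches 34.95 CPM, and 3 counts stand for 28.4 CPM. ckba had 0, 1, 0, 1 and 12 counts, so that replicate 5 held nearly all of them, at 65.5 CPM. For the 0 counts of ckba in replicates 1 and 3 the interval reaches 14.9 and 7575 CPM. ckma had 2 counts each in replicates 1 and 2 and ckmb 1 count in replicate 5.

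In GSCT against zebrafish sperm, ckbb and gapdhs had the lower pooled rates in GSCT. The zebrafish rate of ckbb was 5.27 times the GSCT rate (exact 95% interval 3.52 to 7.81), and that of gapdhs 11.6 times (8.13 to 16.7). For ckba the ratio was 1.54 (0.804 to 2.74), for ckma 0.581 (0.153 to 1.57) and for ckmb, on 1 zebrafish count, 0.238 (0.00587 to 1.41). Single libraries set much of these ratios, as leaving each out in turn showed, a check chosen after seeing the data. Without zebrafish replicate 2 that of ckbb was 2.99 (1.76 to 4.89). Without replicate 5 that of gapdhs was 2.87 (1.44 to 5.32) and that of ckba 0.317 (0.0378 to 1.185), and without replicate 1 that of ckba was 2.635 (1.38 to 4.69). These intervals cover counting error and not the spread between fish. The rates are scaled to named counts, which leave out 13.8% to 77.9% of counts in zebrafish libraries and 0.172% to 0.678% in GSCT. Scaled to all counts, every zebrafish ratio would be lower, by an amount that was not computed. All 5 genes overlapped between the groups' libraries, among them ckbb, whose zebrafish replicate 5 (21.8 CPM) was below GSCT replicate 3 (23.9 CPM).

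The filter in this comparison asked for about 46.3 CPM in 3 libraries, and ckbb alone reached it, through its zebrafish libraries. Its log2 change was -3.57 ± 0.48 (edgeR adjusted p = 2.04e-06), where 87.3% of the 5622 genes tested passed (9.94% lower and 77.3% higher in GSCT), with a median of all genes of 4.14. The filter favours a difference in a gene that enters only through the group where it is high, so nothing is read from this call. It was not past the threshold by DESeq2 (-1.10, adjusted p = 0.0836), with scaling by library size alone (-1.51, edgeR adjusted p = 0.105) or without mitochondrial and rRNA genes (-1.64, edgeR adjusted p = 0.0615). With no filter gapdhs was at -4.06 ± 1.08 (edgeR adjusted p = 0.00175) and ckba at -1.43 ± 0.62 (edgeR adjusted p = 0.0415). In that fit 21351 of 30337 genes passed, with 2.91% of the 30337 lower in GSCT and a median of all genes of 5.821. There ckma was at -0.0804 and ckmb at 1.203 (edgeR adjusted p = 0.927 and 0.392). The mean CPM of ckba was 17.55 in GSCT and 18.37 in zebrafish libraries, and zebrafish replicate 5 held 12 of its 14 counts. No direction is therefore read for ckba from this fit. The same library held 63 of the 76 zebrafish counts on gapdhs, and nothing is read from that call either.

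In grass carp against zebrafish sperm, ckbb and gapdhs had the lower pooled rates in grass carp. ckba was at 72.3 CPM over the grass carp libraries and 23.5 CPM over the zebrafish libraries, a zebrafish rate 0.325 times that of grass carp (exact 95% interval 0.177 to 0.546). Its libraries overlapped, since zebrafish replicate 5 (65.5 CPM) was above 3 of the grass carp libraries, and the ratio was 0.0669 without that replicate and 0.556 without replicate 1. ckbb was at 15.1 and 72.0 CPM, a rate 4.77 times that of grass carp (3.38 to 6.57), and gapdhs at 14.5 and 127 CPM (8.76 times, 6.72 to 11.3). Without zebrafish replicate 2 the ratio of ckbb was 2.71 (1.67 to 4.17), and without replicate 5 that of gapdhs was 2.16 (1.14 to 3.75). These rates too are scaled to named counts, which leave out 13.8% to 77.9% of zebrafish and 0.0036% to 0.138% of grass carp counts. Every zebrafish ratio would be lower on all counts. For ckma the ratio was 0.461 (0.125 to 1.19) and for ckmb, on 1 count, 0.171 (0.00431 to 0.9645). The level of ckmb in grass carp, 6.54 to 11.3 CPM, lay under what 3 counts stand for in every zebrafish library. That was 12.1 to 6160 CPM, or 12.1 to 50.6 CPM without replicate 3. A like level was thus under the floor of each single library. The pooled interval lay just under 1. Its upper end was 1.65, 1.07 and 1.17 without zebrafish replicate 1, 2 or 4, and 0.965 and 0.92 without replicate 3 or 5.

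Of these genes 4 were tested, and ckbb (-3.96 ± 0.46, edgeR adjusted p = 7.95e-05) and gapdhs (-4.74 ± 0.68, edgeR adjusted p = 2.59e-04) passed as lower in grass carp. The filter asked for about 12.6 CPM in 5 libraries, and ckbb reached it in every grass carp library (12.7 CPM or more). With grass carp replicate 2 at 8.63 CPM, gapdhs needed zebrafish libraries, where it is high, to enter. Nothing is therefore read from the call of gapdhs. With grass carp replicate 5 at 8.77 CPM, ckma too needed a zebrafish library to enter, replicate 2 at 33.8 CPM on 2 counts. Among the 20106 genes tested 82.1% passed (6.48% lower in grass carp and 75.6% higher), with a median log2 change of 8.53. ckbb was also lower in every grass carp library than in every zebrafish library, as were 0.189% of the genes tested. The gap was narrow, with grass carp replicate 3 at 20.76 CPM and zebrafish replicate 5 at 21.83 CPM. The latter value rests on 4 counts, and its exact Poisson interval, 5.947 to 55.88 CPM, reaches below all grass carp libraries. The separation is therefore within counting error. The sizes depended on the scaling: ckbb was at -1.41 by DESeq2, -1.35 with RLE factors and -2.34 with library size alone (DESeq2 adjusted p = 1.055e-04, edgeR adjusted p = 0.00409 and 0.00559), and gapdhs at -2.055 with RLE factors (edgeR adjusted p = 0.00256). Without zebrafish replicate 2 ckbb was at -2.65 (edgeR adjusted p = 4.545e-04). Without zebrafish replicate 3 ckbb was at -3.41 and gapdhs at -4.32 (edgeR adjusted p = 1.445e-04 and 2.98e-04). Without zebrafish replicate 5, which held most of its counts, gapdhs was at -2.01 (edgeR adjusted p = 0.0213). By DESeq2 gapdhs missed it (-1.78, adjusted p = 0.0528).

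The direction of ckba and ckma in this comparison depended on the scaling. ckba was at -0.01 ± 0.875 with TMM factors (edgeR adjusted p = 0.994) and ckma at -0.53 ± 0.88 (edgeR adjusted p = 0.584), and both were positive by DESeq2 (2.88, adjusted p = 0.00205, and 2.01, adjusted p = 0.00421). With library size alone they were at 1.68 (edgeR adjusted p = 0.0489) and 1.21 (edgeR adjusted p = 0.151). No direction is therefore read for them from the fit. Both comparisons share the zebrafish libraries, and the comparison of GSCT with grass carp shares its libraries with each of them.

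Of the 71 other energy supply genes, 48 had 0 counts over the zebrafish libraries, 16 had 1 to 3 and 7 had more. The largest number, 185, lay on pgam1a, a phosphoglycerate mutase of glycolysis, and the next, 69, on nme7, a nucleoside diphosphate kinase of cilia. Each leaned on a single library other than replicate 3, and so do their ranks per kb. pgam1a averaged 200 ± 407 CPM (SD, n = 5) with 928 CPM in its highest library. nme7 averaged 233 ± 521 CPM (SD, n = 5) with 1165 CPM in its highest. Per kb, and without replicate 3, pgam1a led the 76 genes in zebrafish libraries at 87.1 CPM per kb, followed by ckbb at 22.7, gapdhs at 8.37 and nme7 at 7.28. With replicate 3, whose 487 counts include 3 on ckbb and 1 on gapdhs, the values were 69.7, 259.6, 39.6 and 5.82, and ckbb led. Zebrafish counts followed gene span only weakly (rho 0.0172 to 0.291, or 0.210 to 0.291 without replicate 3), so the order depends on dividing by span. By CPM without replicate 3, nme7 was at 291, pgam1a at 250, ckbb at 116 and gapdhs at 104. The lists hold no independent result against zebrafish. Of the 59 list genes tested in grass carp against zebrafish (30 of glycolysis, 17 of creatine and phosphate transfer, 12 of transport) and of the 7 tested in GSCT against zebrafish, 0 reached the filter through the zebrafish libraries alone. They thus needed the libraries of the other group to enter the test, and nothing is read from their calls.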

How the data were processed

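The authors deposited raw counts of reads for each gene, with a separate file for every library (3 GSCT, 5 grass carp and 5 zebrafish, each from 1 fish per the labels' protocols). Per the submitters' processing notes the tools were featureCounts, Subread, HISAT2, SAMtools, fastp, FastQC and CASAVA. Not given in the sources used here are the genome build, the annotation, the strandedness used in counting and how multi-mapping reads were handled. How alike the copies ckba and ckbb, or ckma and ckmb, are in sequence was not measured, so reads that copies share could be split between them. No coordinates are given.

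Symbols were matched to the grass carp RefSeq table (assembly HZGC01): 29689 non-tRNA names matched, and 1625 entries were tRNA. That table gave gene type, span and neighbours. A further 24 unnamed entries, 0.0036% to 0.678% of counts in GSCT and grass carp and 13.8% to 77.9% in zebrafish libraries, were left out. No library pairs were identical.

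Each pair of groups was fitted on its own libraries with edgeR 4.0.16 in R 4.3.3 (TMM, filterByExpr with minimum count 10 and minimum total 15, glmQLFit and glmQLFTest, two-sided, Benjamini-Hochberg adjusted p under 0.05 over all genes tested). SEs were derived from the F statistic. CPM is scaled to named counts. Poisson and pooled-ratio intervals are exact and share intervals Wilson, at the 95% level. A floor of 3 counts was used. Alternatives were DESeq2 1.42.0, RLE factors, library size alone, no filter, no mitochondrial or rRNA genes, a replicate block, robust moderation and leaving out each library. The fit was tested on simulated counts.

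The genes and lists were chosen with earlier results of these data known. Named were all 5 genes, their neighbours, the 3 genes most alike to each, list genes past the threshold in GSCT against grass carp and the 4 of each list with the lowest p there (those of the zebrafish comparisons, which the rule also covers, are left out because these genes entered through the other group's libraries). Also named, after their values were seen, were bpgm, eno2, pgam1a, nme7 and the marker genes. Of the fixed names, 3 of 25, 1 of 38 and 1 of 13 in the energy lists had no entry under that symbol, nor had 8 of 29 sperm, 3 of 23 muscle and 3 of 14 blood markers. Replicate numbers did not pair the samples.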

Additional observations from a re-analysis of the deposited data

Results flagged for a closer look

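Each gene's CPM and each creatine kinase's share of the creatine kinase counts were examined in the grass carp and zebrafish groups, 18 groups of 5 libraries, and in 9 of them 1 library lay far from the others. Chance flags about 1 in 20 such groups when values are normally distributed, and the 18 are not independent of each other. Zebrafish values, which rest on few counts at very unequal depth, are not of that kind. For ckmb, 1 count in 1 library had to give a flag. The 9 are therefore not set against that rate. In grass carp sperm, ckbb stood out in replicate 3 at 20.76 CPM, where the other 4 libraries lay between 12.7 and 14.1 CPM. All other cases were in zebrafish libraries. Replicate 3, with 487 counts in all, was far above the rest for ckbb (6160 CPM on 3 counts) and gapdhs (2053 CPM on 1 count). Replicate 2 was high for ckma at 33.76 CPM, on 2 counts. Replicate 5 was high for ckba at 65.48 CPM on 12 counts and for ckmb at 5.456 CPM on 1 count. In the same library ckba took 70.59% of the creatine kinase counts, ckbb only 23.53% and ckmb 5.882%, of 17 counts in all.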

How the results depend on the processing

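Log2 changes are given in the order of each comparison's name. In GSCT against grass carp the lower ckba kept its direction under every alternative, from -2.349 to -1.729 with 1 library left out. It missed the threshold with robust moderation (-2.163) and without GSCT replicate 2 (-1.998). ckbb, near 0, changed sign with library size alone (-0.06566), with no filter (-0.01279) and with 1 library left out (-0.1492 to 0.3205). Genes called over the whole table numbered 285 (without GSCT replicate 2) to 1534 with 1 library left out, against 1223. They were 679 and 812 without GSCT replicates 1 and 3 and 802 without grass carp replicate 5. Of the glycolysis genes 2 passed with library size alone and 0 to 2 with 1 library left out, and of the transport genes 0 to 1.

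In GSCT against zebrafish 21351 genes passed with no filter and 402 of 668 tested without mitochondrial and rRNA genes, against 4906. The creatine, glycolysis and transport lists gave 16, 31 and 11 with no filter and 0, 0 and 0 without those genes, which left few genes past the filter. With 1 library left out the first 2 lists gave 0 to 4 and 2 to 6. ckbb missed the threshold by DESeq2 (-1.104), with library size alone (-1.515) and without mitochondrial and rRNA genes (-1.639).

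In grass carp against zebrafish ckba became positive by DESeq2 (2.882), with RLE factors (2.688), library size alone (1.682) and no filter (0.7283), and lay at -0.2328 to 3.022 with 1 library left out. ckma became positive by DESeq2 (2.007), RLE (2.082), library size alone (1.209) and no filter (0.2218). It lay at -0.2592 to 0.8224 with 1 zebrafish library left out. With any 1 grass carp library left out, neither ckma nor gapdhs passed the filter. gapdhs missed the threshold by DESeq2 (-1.779). With 1 library left out 6092 to 20747 genes passed, and 6 to 18, 8 to 32 and 1 to 12 of the lists. Without a grass carp library at most 7243 genes passed the filter, against 20106. The median of all genes was 8.53, 8.60 with RLE factors, 8.56 with library size alone and 4.70 by DESeq2; in GSCT against zebrafish it was 4.14, and 5.885 to 6.39 under these alternatives. Pooled rates and per kb levels without single zebrafish libraries were added after seeing the data. The causes were not tested.

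The replicate numbers did not pair the samples (r of same-numbered deviations 0.0453, 0.0490 and -0.00937 in GSCT against grass carp). A replicate block gave ckba -2.36 and 996 calls there, 1 gene of the creatine list in GSCT against zebrafish, and ckba 0.7647 in grass carp against zebrafish. By Spearman's rho 1 of the 3 genes most like ckmb, and 1 of those most like gapdhs, remained. Counts per kb of coding length were not run. Depth limits the zebrafish values: 3 counts stand for 12.1 to 6160 CPM there, or 12.1 to 50.6 CPM without replicate 3.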

Other observations

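The ratio of the muscle-type copies overlapped between GSCT and grass carp sperm, and that of the brain-type copies did not. ckma had 2.15, 1.45 and 0.667 times the counts of ckmb in GSCT replicates 1 to 3, and 1.52, 2.24, 1.47, 2.60 and 0.906 times in grass carp replicates 1 to 5. ckba had 1.56, 0.794 and 1.00 times the counts of ckbb in GSCT, and 4.55, 10.5, 1.89, 3.06 and 5.58 times in grass carp. The nearest 2 were GSCT replicate 1 (42 over 27 counts) and grass carp replicate 3 (208 over 110), and GSCT replicate 3 rests on 9 over 9. No intervals were computed for the ratios, so a gap beyond counting error is not shown. With ckba as numerator, the gap repeats its lower level in GSCT and is no further result. These ratios are descriptions without a test.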
